A study of Solanum tuberosum with 9 samples.

Results

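The genes described here are the 200 potato gene models whose transcript level varied least across a storage experiment with rosemary essential oil. They were chosen from the count table by a rule on measured values. Counts were divided by the library total (the CPM scale, which gives every library the same sum), models with a mean of 50 to 300 CPM over the 9 libraries were kept, and the 200 with the lowest coefficient of variation (CV, the SD divided by the mean) were taken. The window of 50 to 300 CPM held 3240 models with reference identifiers, out of 34239 models in the whole table. Tubers of the cultivar Keshan, bought mature, were profiled by RNA sequencing in 3 groups of 3 libraries each. The groups were day 40 tubers exposed to the vapour of rosemary essential oil (REO, a mix of volatile terpenes), day 40 controls stored without it, and controls taken at day 0. Treated and control tubers were kept sealed under the same temperature and humidity. The libraries of a group are described as biological replicates. How many tubers went into each is not stated in the sources, so a p-value here reflects no more than the spread among the libraries.

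Transcripts that hold a constant share of the messenger RNA serve as internal references: in quantitative PCR, the level of a gene under study is divided by that of reference genes assumed to be steady. Genes for elongation factor 1-alpha, actin, tubulin and cyclophilin are customary choices in plants, and their steadiness has to be shown in each tissue and treatment. A stored tuber leaves dormancy and turns to sprouting while its starch and sugar metabolism shifts, so a reference for such a series has to hold through storage as well as through fumigation. Gene models carry identifiers but no names in the files, and the RefSeq gene table of assembly SolTub_3.0 listed none (0) of the 200. The members are therefore given by identifier and chromosome number, no function is assigned to any of them, and neither the customary reference genes nor tuber marker genes could be located.

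The libraries held 29330673 to 36901701 counts each. A limit of 3 counts, at 0.0813 to 0.102 CPM, was far below every member. Members had a median of 2851 counts per library, with means of 1669 to 9866. Control day 40 replicate 2 had the most detected models, 26805 against 23747 to 25195 in the other libraries. Control day 0 replicate 3 had the lowest TMM scaling factor (trimmed mean of M values, which corrects totals for abundant or changed transcripts), 0.871 against 0.968 to 1.095 elsewhere. In bulk tuber tissue, a change in the mix of cells and a change in RNA per cell cannot be told apart. Both libraries bear on the results below.

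The CV of the members ran from 4.07% to 9.57% with a median of 8.19%, and that of the other 3040 models in the window had a median of 19.9%. These values made the choice and are given as a description only. The last members inside the limit were Soltu.DM.12G008860, Soltu.DM.07G024730 and Soltu.DM.03G033480, with CVs of 9.56%, 9.56% and 9.57%. The first models outside it were Soltu.DM.08G023040, Soltu.DM.05G024910 and Soltu.DM.01G026710, with CVs of 9.58%, 9.59% and 9.60%. The limit thus lay inside a continuous range of values, with no gap between members and the next models. From the lowest to the highest of the 9 libraries, members changed by 1.14-fold to 1.41-fold, with a median of 1.28-fold. The median for the other models in the window was 1.91-fold.

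The lowest CV on library totals was that of Soltu.DM.01G039480 on chromosome 1. It stood at 194.8, 196.8 and 191.6 CPM with REO, at 194.9, 188.6 and 201.6 CPM in day 40 controls, and at 196.5, 174.1 and 190.1 CPM in day 0 controls. The 3 groups overlapped, and day 0 replicate 2 was the low library. Soltu.DM.03G031990 on chromosome 3 had 137.4, 142.1 and 144.6 CPM with REO, 157.1, 148.2 and 151.9 CPM in day 40 controls, and 152.0, 145.8 and 153.6 CPM at day 0. On library totals, all REO libraries of this model lay below all 6 control libraries, so its small spread had an order by group on that scale only. Under TMM scaling its log2 fold change for REO against control at day 40 was -0.05 ± 0.13 (SE) and did not pass the test (edgeR adjusted p = 0.999977).

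Soltu.DM.03G000120, also on chromosome 3, had 91.2, 87.3 and 91.0 CPM with REO, 92.1, 90.3 and 85.1 CPM in day 40 controls, and 81.9, 80.5 and 84.3 CPM at day 0. On library totals, though not under TMM scaling, the day 0 libraries were the low ones and lay below all 6 libraries of day 40. Soltu.DM.08G009210 on chromosome 8 averaged 127.8 ± 4.76 CPM with REO, 120.1 ± 3.42 CPM in day 40 controls and 116.7 ± 4.50 CPM at day 0 (SD, n = 3 each). Its REO libraries lay above all 6 control libraries on library totals. Under TMM scaling its log2 fold change for REO against control at day 40 was 0.15 ± 0.13 (SE; edgeR adjusted p = 0.941). Soltu.DM.07G021010 on chromosome 7 averaged 107.6 ± 7.69 CPM with REO, 111.2 ± 5.82 CPM in day 40 controls and 107.7 ± 4.09 CPM at day 0, and its groups overlapped.

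The low CVs of these members hold on the scale that chose them. With TMM scaling the CV of Soltu.DM.01G039480 was 7.81%, against 4.07% with library totals, and with RLE scaling (the median-ratio factors of DESeq2) it was 8.51%. Soltu.DM.03G031990 had 8.19% and 8.89% under these scalings, against 4.21%, and Soltu.DM.08G009210 had 8.50% and 9.21%, against 5.07%. Soltu.DM.07G021010 had 7.88% and 8.59%, against 5.08%. Soltu.DM.03G000120 moved least of the 5, to 6.73% and 7.54%, against 4.99%. The lowest CV under TMM among the members was 3.51%, in Soltu.DM.02G018750 on chromosome 2, named after its values were seen, whose CV with library totals was 7.07%.

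**Figure D1:**
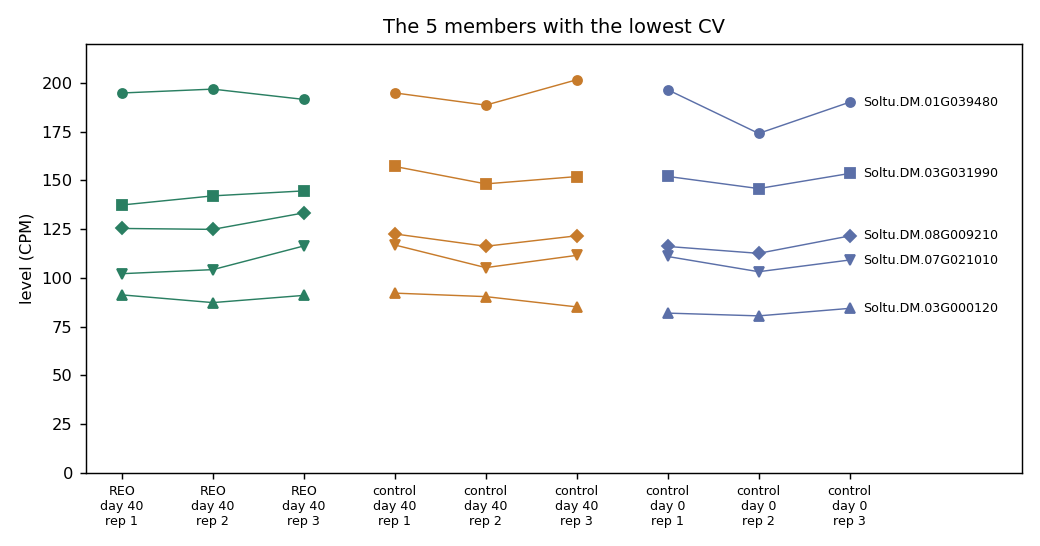
Level in CPM (vertical axis, from 0) of the 5 members with the lowest CV in each of the 9 libraries (horizontal axis), 1 point per library, coloured by group. Each model stays within a narrow band, the highest library being 1.14-fold to 1.18-fold the lowest on library totals, the scale used for the choice.

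Counting error accounted for a small part of even this spread. At the members' depth, independent counts would give a median CV of 1.87%. Low values in the table were more often 2 than 1 (4901 against 1998 entries), so each fragment may have entered the count by both of its ends. With 2 counts per fragment the counting CV would be 2.65%. The variance of the members over the libraries was 18.001 times the counting variance in the median, with a range of 5.09 to 85.4 times. With 2 counts per fragment the median was 9.00 times and the lowest 2.54 times. No member (0 of 200) reached the counting limit under either assumption, and the intervals of counts cover counting error only.

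**Figure D2:**
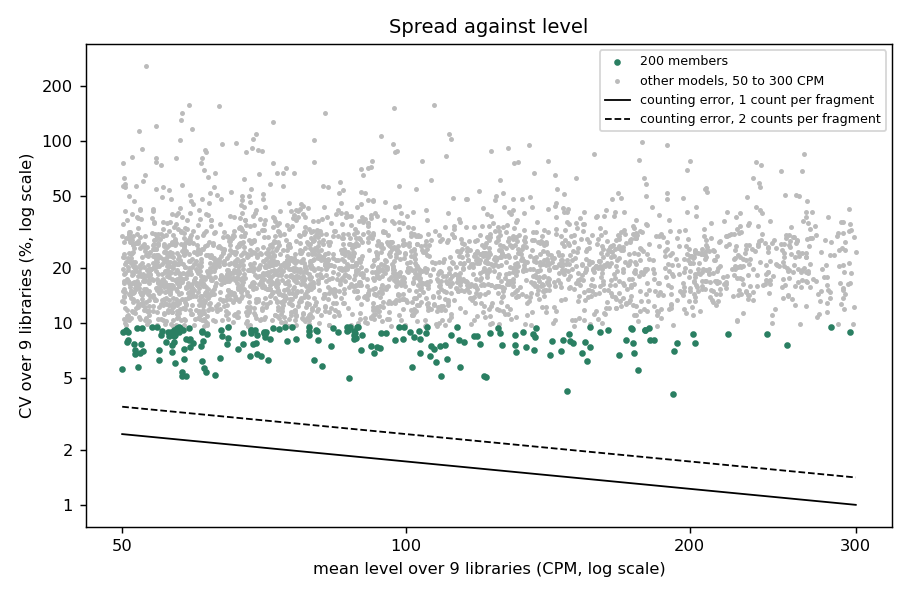
CV over the 9 libraries in percent against mean level in CPM, both on log scales, 1 point per model of the 50 to 300 CPM window. Members lie at or below 9.57% at all levels, and the counting error expected at the mean depth (solid and dashed lines) lies below all of them.

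Members were found over the whole window of levels, with a median of 85.6 CPM against 89.1 CPM in the other models. When the window was divided by level into 10 bands of 324 models, 17 to 32 members fell into each of the lower 9 bands and 6 into the highest, from 202.4 to 299.9 CPM. The highest member was Soltu.DM.01G029570 on chromosome 1, with 309.3 ± 22.5 CPM with REO, 283.2 ± 17.9 CPM in day 40 controls and 295.4 ± 37.9 CPM at day 0 (SD, n = 3 each). The lowest was Soltu.DM.03G016870 on chromosome 3, at 48.4 ± 2.01, 50.2 ± 3.90 and 51.6 ± 2.08 CPM. On the length-corrected FPKM scale of the authors' second table, member levels ran from 10.4 to 162.8 FPKM. Their CV on that scale had a median of 8.29% and a highest value of 10.3%.

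Members lay on all 12 chromosomes by the number in their identifier. Chromosome 1 held 33 of its 439 window models, chromosome 3 held 25 of 331 and chromosome 10 held 21 of 225, which at 9.33% was the largest share of any chromosome. Chromosome 12 had the smallest share, 9 of 210 or 4.29%. Identifiers next to each other in the table occurred in 2 pairs of members, Soltu.DM.07G010290 with Soltu.DM.07G010310 and Soltu.DM.10G000820 with Soltu.DM.10G000830. The window as a whole held 479 such neighbouring pairs among its 3240 models, and nothing is read from the count in the much smaller member list.

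The members also differed from the other models in transcript length, which the rule did not use directly. A length scale for each model was taken from the ratio of its count to its deposited FPKM value. The members had a median of 1975 bases with quartiles of 1658 and 2363, and the other models a median of 2279 with quartiles of 1508 and 3323. Of the members 136, or 68.0%, were 1500 to 2500 bases long, against 31.8% of the other models. Models over 4000 bases made up 1% of the members and 15.0% of the others, and models under 1000 bases made up 3.00% and 10.2%. In 2 of these classes the difference was much smaller in a list chosen without control day 0 replicate 3, which shared 86 models with the members. Of its 200 models, 36.0% were 1500 to 2500 bases long and 14.5% were over 4000 bases, near the shares in the other models. Short models remained few in that list. Only 21 of its 200 models were under 1500 bases, and its first quartile was 1962 bases against 1508 in the other models. The other models at the same levels, within the members' quartiles of CPM, had a median of 2356 bases. The longest member was Soltu.DM.07G004050 on chromosome 7 at 5035 bases, with a CV of 9.37%, and the shortest was Soltu.DM.10G001260 on chromosome 10 at 634 bases, with a CV of 7.38%.

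Length also ordered the libraries. Among models of the window that were not members, the median log2 ratio of control day 0 replicate 3 to the 9-library mean was 0.46 for models under 1000 bases, -0.05 for 1500 to 2000 bases, -0.26 for 2000 to 2500 bases and -0.92 for models over 4000 bases. The difference between the longest and the shortest class was therefore -1.38 in that library. In the other 8 libraries it ran from -0.18 in REO replicate 3 to 0.52 in control day 40 replicate 1, and each group held libraries of both signs. In the class of 1500 to 2000 bases, where members were most frequent at 13.3% of the models, the library medians lay between -0.10 and 0.08. Within the members the same trend remained in day 0 replicate 3, from 0.11 in those under 1000 bases to -0.23 in those over 4000 bases. The part of this trend in the choice of members was not tested beyond leaving the library out and taking the trend out, as given below, and the sources give no RNA integrity value per library.

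**Figure D3:**
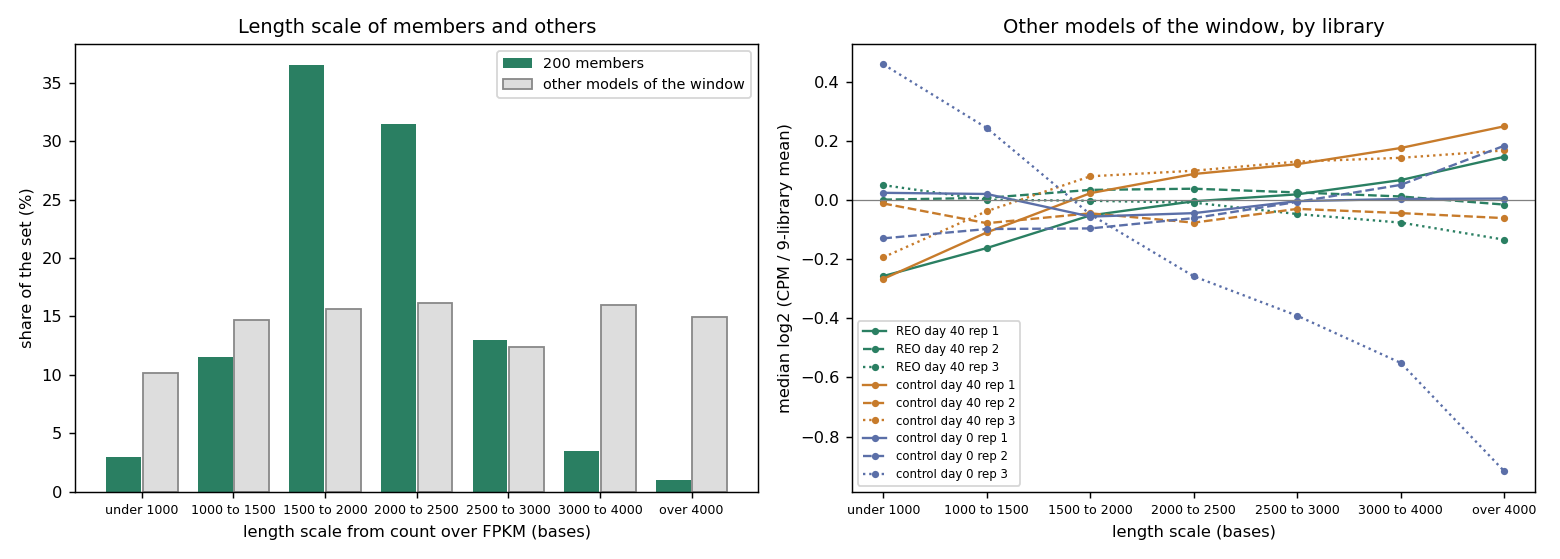
Left, share of the 200 members and of the 3040 other models in each class of length scale (bases). Right, median log2 ratio of CPM to the 9-library mean for the other models of each length class, 1 line per library; control day 0 replicate 3 runs from 0.46 in the shortest to -0.92 in the longest class, while the other libraries stay between -0.27 and 0.25.

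The levels by library describe the members on the scale that chose them, so medians near 0 follow from the rule. The median log2 ratio of members to their 9-library mean was -0.05, 0.02 and 0.02 in REO replicates 1, 2 and 3, 0.02, 0.00 and 0.05 in day 40 controls, and 0.03, -0.05 and -0.05 at day 0. These medians spanned 0.10 on the log2 scale, and with TMM scaling they spanned 0.28. The summed level of the 200 members was 19730 ± 505 CPM with REO, 19991 ± 353 CPM in day 40 controls and 19479 ± 704 CPM at day 0 (SD, n = 3 each). The groups overlapped in this sum, and the spread among day 0 libraries was the widest. Among the other models the median ratio in day 0 replicate 3 was well below 0, and in the window as a whole it was -0.26. That library was the lowest of the 9 for 62 members (31.0%) and for 45.2% of all window models, and control day 40 replicate 2 was the lowest for 40 members (20%) and 12.4% of window models.

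**Figure D4:**
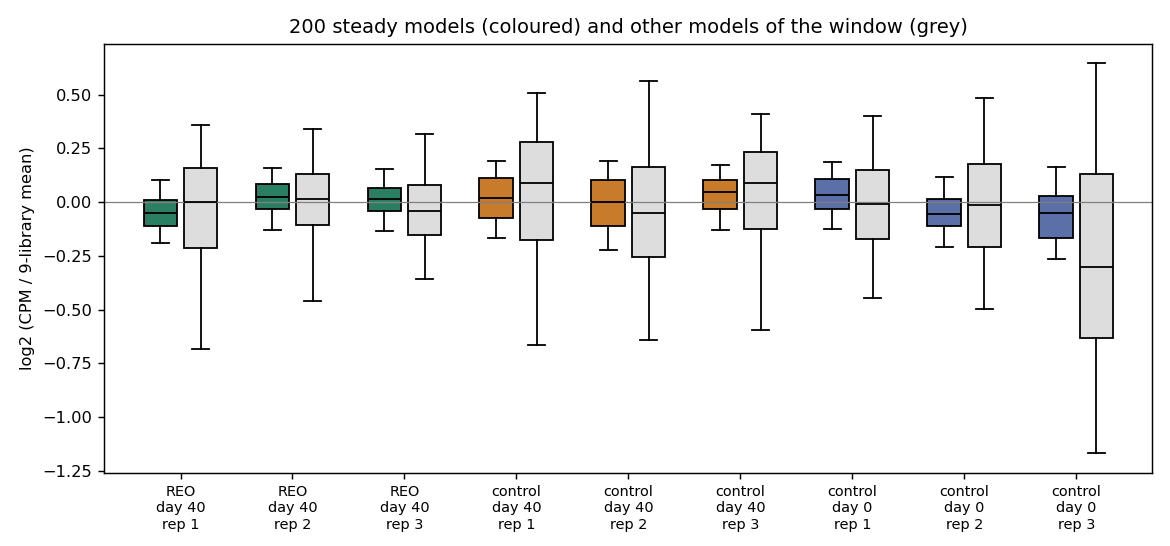
Log2 ratio of CPM to the 9-library mean by library for the 200 members (coloured by group) and the 3040 other models of the window (grey). Boxes give quartiles and median and whiskers the 5th and 95th percentile; member medians lie between -0.05 and 0.05 in every library, as the choice on this scale implies, and the grey box of control day 0 replicate 3 is shifted down.

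Spread within groups differed between the groups for members and others alike. The CV among REO libraries had a median of 5.14% over the members, against 6.85% among control libraries at day 40 and 6.99% at day 0. In the other models these medians were 9.83%, 16.2% and 18.3%. Pooled over the groups, the within-group CV of members had a median of 7.38%, close to the 8.19% over all 9 libraries. The group means of a member differed by 1.01-fold to 1.23-fold, with a median of 1.099-fold. In the other models this median was 1.301-fold. Spread within groups and between group means together make up the CV used for the choice. The lower values in the members therefore follow from the rule and are a description only.

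The pattern of deviations over the members differed between libraries. Over the 200 members, correlations of the log2 deviations between 2 libraries ran from -0.43, for REO replicate 1 with control day 40 replicate 2, to 0.53, for control day 0 replicates 1 and 2. Deviations are taken from a mean that all libraries share, so they are a description only. A shift of all members together in a library does not enter these correlations. Such shifts appear in the library medians, which spanned 0.10 with library totals and 0.28 with TMM scaling. The geNorm-type M value, the mean SD of the log2 ratio of a member to each of the others, ran from 0.118 to 0.182 with a median of 0.154. It uses ratios within a library, so its calculation does not depend on library totals. The members themselves were chosen on library totals in these libraries, so low M values among them follow in part from the rule. The most constant pair of the 19900 was Soltu.DM.06G002720 with Soltu.DM.06G000080, both on chromosome 6. Their ratio stayed between 1.07 and 1.14 in all 9 libraries, with an SD of 0.03 on the log2 scale against a median of 0.15 over all pairs. Soltu.DM.06G002720 had 62.7, 60.9 and 62.4 CPM with REO, 68.2, 67.5 and 61.9 CPM in day 40 controls, and 61.9, 60.0 and 58.3 CPM at day 0. Soltu.DM.06G000080 had 54.9, 56.1 and 56.5 CPM, 63.6, 60.6 and 57.8 CPM, and 55.7, 54.9 and 51.9 CPM in the same order. On library totals, though not on every scale, both were highest in control day 40 replicate 1 and lowest in day 0 replicate 3. Their ratio was steadier than either level. The pair was picked as the lowest of 19900 in these same libraries, so its steady ratio follows in part from the search. Counting alone would give the levels CVs of 2.19% and 2.29%, and the ratio carries both errors.

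REO against control tubers at day 40 was tested over all 22638 models with enough counts (quasi-likelihood test of edgeR, adjusted p under 0.05). None (0) of the 200 members was called, where 0.459% of all tested models were (0.424% higher and 0.0353% lower). At an unadjusted p under 0.05 the count was 0 members in edgeR and 7.80% of all models, and it was 2 members in DESeq2 and 0 in limma-voom, against 7.55% and 7.56% of all models. The rule used these libraries, so the missing calls and the narrow intervals near 0 follow from the choice in part. Member log2 fold changes under TMM scaling ran from -0.23 to 0.26 with a median of 0.03, where the median of all models was -0.05. They were positive in 129 members and negative in 71. Fold changes here can differ from the ratio of the CPM means, which are on library totals. The 95% intervals, which reached a median of 0.30 on the log2 scale to either side, lay inside a 2-fold change for all 200 members and inside a 1.5-fold change for 197. For storage without oil and storage with oil, 189 and 197 members lay inside a 1.5-fold change. On library totals, groups did not overlap in 10 members that were higher with REO and 26 that were lower, against 5.76% and 9.59% of all tested models.

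The highest fold change among the members was that of Soltu.DM.03G029950 on chromosome 3, at 64.3 ± 1.64 CPM with REO, 55.9 ± 2.64 CPM in day 40 controls and 62.4 ± 5.07 CPM at day 0 (SD, n = 3 each). Its log2 fold change at day 40 was 0.26 ± 0.15 (SE; edgeR adjusted p = 0.800). The lowest fold change was that of Soltu.DM.07G026190 on chromosome 7, which had 252.3, 245.9 and 249.9 CPM with REO, 308.0, 296.7 and 308.6 CPM in day 40 controls, and 307.3, 273.6 and 298.0 CPM at day 0. Every REO library of this model was below every control library of both days, although neither comparison passed. Its log2 fold change against control at day 40 was -0.23 ± 0.14 (SE; edgeR adjusted p = 0.836), and against day 0 it was -0.30 ± 0.14 (SE; edgeR adjusted p = 0.315).

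Storage without oil, control day 40 against control day 0, called 0 members and 0.844% of all models, 0.274% higher and 0.57% lower (edgeR adjusted p under 0.05). Unadjusted, 7 members passed in edgeR against 18.4% of all models, 10 in DESeq2 (16.9% of all models) and 7 in limma-voom (17% of all models). After adjustment DESeq2 called 5.71% of all models, 3.12% lower, and 2 members lower, Soltu.DM.08G020240 and Soltu.DM.08G017460, which are named because of these calls. Soltu.DM.08G020240 had 76.96, 83.7 and 79.5 CPM at day 40 and 98.6, 97.6 and 83.9 CPM at day 0, and REO libraries of day 40 stood at 84.5, 95.1 and 92.1 CPM. The storage groups did not overlap on library totals, the scale on which day 0 replicate 3 was nearest to day 40. Its log2 fold change was -0.34 ± 0.11 (SE; edgeR adjusted p = 0.167), and DESeq2 gave -0.34 with an adjusted p of 0.00356. Soltu.DM.08G017460 averaged 170.3 ± 4.80 CPM at day 40 and 196.9 ± 16.4 CPM at day 0 (SD, n = 3 each), with a DESeq2 adjusted p of 0.0410. In the positive direction the extreme member was Soltu.DM.08G007480, at 107.4 ± 0.733 CPM at day 40 and 87.0 ± 4.56 CPM at day 0. Its log2 fold change was 0.19 ± 0.11 (SE; edgeR adjusted p = 0.421). On library totals, groups did not overlap in 26 members higher at day 40 and 10 lower, against 14.2% and 6.83% of all tested models. Under TMM scaling the fold change was positive in 56 members and negative in 144.

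Storage with oil, REO day 40 against control day 0, also called 0 members, and 2.61% of all models, 1.39% higher and 1.22% lower (edgeR adjusted p under 0.05). Unadjusted, 2 members passed in edgeR against 18.5% of all models, 6 in DESeq2 (16.8% of all models) and 2 in limma-voom (17.4% of all models). Member log2 fold changes ran from -0.31 to 0.19. The lowest was that of Soltu.DM.03G013510 on chromosome 3, at 53.0 ± 2.73 CPM with REO and 63.2 ± 3.95 CPM at day 0 (SD, n = 3 each; edgeR adjusted p = 0.191). The highest was that of Soltu.DM.07G024730 on chromosome 7, at 123.2 ± 3.12 and 103.7 ± 6.24 CPM (edgeR adjusted p = 0.494). Groups did not overlap on library totals in 19 members higher with REO and 16 lower, against 16.3% and 11.7% of all tested models. This comparison shares the day 0 libraries with storage without oil and the REO libraries with the comparison at day 40.

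The sign of the members' median change in storage depended on the scaling. It was -0.07 on the log2 scale without oil and -0.04 with oil under TMM scaling, and 0.04 and 0.03 with library totals alone, the scale on which the members were chosen. The same step moved the median of all models in storage without oil to 0.15, against 0.04 under TMM. For REO against control at day 40 the members' median was 0.03 under TMM and -0.03 with totals alone. Under TMM the members' median was highest in day 0 replicate 3, at 0.15, and lowest in control day 40 replicate 2, at -0.13. With the summed counts of the members as the library size, 88, 124 and 555 models of the whole table were called for REO at day 40, storage without oil and storage with oil, against 104, 191 and 590 under TMM.

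Stability was read in libraries that took no part in a choice by leaving out each library in turn and choosing 200 models from the other 8. Of the models so chosen, 89.5%, 95% and 98.0% lay within 1.2-fold of the mean of the other 8 in REO replicates 1, 2 and 3. The shares were 88.0%, 71.5% and 91.5% in control day 40 replicates 1, 2 and 3, and 90.5%, 82.0% and 33.5% in control day 0 replicates 1, 2 and 3. In the rest of the window they ran from 48.3% to 78.1% in the first 8 of these libraries and were 28.9% in day 0 replicate 3. Models chosen for steadiness were thus closer to their mean than the rest in each left-out library, and by the smallest margin in day 0 replicate 3. There the chosen models had a median log2 ratio of -0.36, and 169 of the 200 were lower than in the other libraries.

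The 200 models chosen without day 0 replicate 3 had a median length scale of 2554 bases and shared 86 with the members. Their log2 ratio in the left-out library followed length. The median was 0.31 in the 21 models under 1500 bases, -0.09 in 32 models of 1500 to 2000 bases, -0.38 in 41 models of 2500 to 3000 bases and -0.67 in 66 models over 3000 bases. All of the 66 were lower in that library. With TMM scaling the share within 1.2-fold in day 0 replicate 3 was 53.0%, against 32.6% in the rest of the window.

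**Figure D5:**
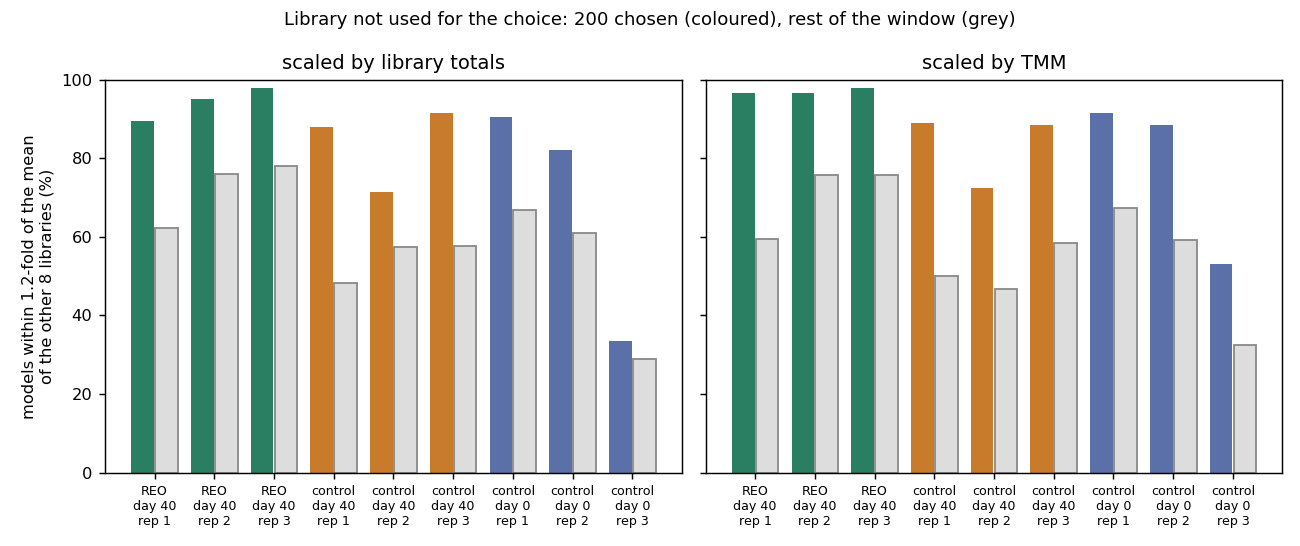
Share of models (percent, from 0) in the left-out library that lay within 1.2-fold of the mean of the other 8 libraries, for 200 models chosen on those 8 (coloured by group) and the rest of the window (grey), under 2 scalings. The shares with library totals run from 71.5% to 98.0% in 8 libraries and fall to 33.5% in control day 0 replicate 3.

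Whole groups were left out in the same way. Models chosen on the 6 control libraries lay within 1.2-fold of their mean in the REO group for 87.5% of 200, against 73.6% of the rest. Models chosen on REO and control day 0 libraries did so in control tubers at day 40 for 85.5%, against 66.9%. Models chosen on day 40 libraries of both treatments did so at day 0 for 75%, against 50.5%. The lists shared 134, 118 and 59 models with the members.

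Of the members, 72 were chosen again in every one of the 9 rounds that each left out 1 library, and 123 in the 8 rounds that kept day 0 replicate 3. A choice by TMM-scaled CPM shared 106 models with the members, and a choice by the M value over the window shared 91. All 3 of these lists held 78 members, and 54 members were in these lists and in every one of the 9 rounds. The member with the lowest M over the window, named after the values were seen, was Soltu.DM.07G004840 on chromosome 7, which also led all window models on that scale. It averaged 70.9 ± 3.48 CPM with REO, 69.8 ± 4.17 CPM in day 40 controls and 64.5 ± 4.12 CPM at day 0 (SD, n = 3 each), with a CV of 6.58% by library totals and 6.09% under TMM.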

How the data were processed

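Per the labels' protocols, TRIzol extracts were cleared of DNA, and mRNA captured on oligo(dT) beads was fragmented and primed randomly, with no step named that would keep the strand. The authors deposited whole-number counts and a second table, read as FPKM from its values, for 34239 gene models. Per the submitters' processing notes, HISAT2 2.1.0 and DESeq2 were used. No source used here gives the counter, build or annotation, so counts of overlapping or near-identical models are uncertain.

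CPM was computed as count over library total. The count over FPKM was a model constant times a library constant within 2% in 87.1% of 17855 models with at least 20 counts everywhere, which gave the length scale. All 22638 models that passed filterByExpr were fitted with edgeR 4.0.16 (R 4.3.3) with TMM scaling and 1 coefficient per group, with two-sided tests and Benjamini-Hochberg adjustment at 0.05. All 200 members passed this filter. Standard errors came from the F statistic. The fit was run on simulated data with known fold changes, and the choice on simulated models that were either steady or variable. Those models had a clear gap in spread and no length trend, unlike the real ones, so that run checks the calculation only. Replicates differed far beyond counting noise (chi-square per degree of freedom of 36.4 or more).

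Alternatives were DESeq2 1.42.0, limma-voom (limma 3.58.1), other scalings, filters, windows and measures of spread, a replicate block and leaving out libraries or groups. Members, lists and tests were chosen with earlier results of these data known. Named members were the 5 of lowest CV, the edges of the limit, the extremes of level, length and each contrast, and the most constant pair.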

Additional observations from a re-analysis of the deposited data

How the results depend on the processing

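Members had 1669 or more counts on average, and each group had 3 libraries. The count of called members stayed at 0 in 56 of 57 alternatives over the 3 comparisons and was 2 with DESeq2 in storage without oil. Since the members were chosen for low spread over the same libraries, these counts say nothing about stability.

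Of the 200 members, 106 remained with TMM scaling, 96 with RLE scaling, 67 with MAD over median, 106 with a window of 25 to 600 CPM, 118 without control day 40 and 59 without control day 0. Leaving out 1 library kept 86 to 180, the lowest without control day 0 replicate 3. Measured over all 9 libraries on library totals, the median CV of the re-chosen lists was 9.65% with RLE and 11.9% with MAD. It was 11.7% without control day 0, and 8.19% to 10.3% when 1 library was left out. The rule gave the members the lowest CVs of their window on that measure, so higher values do not show less steady models. The TMM list had 9.43% on that measure and 7.73% under its own scaling, where the members had 8.95%. Choices added after the data were seen were the M value, which kept 91 (median CV 9.95%), and taking the length trend out of each library, which kept 51 (median CV 14.8% before and 5.78% after that step). Totals without the 10 most abundant models, also added later, kept 173. The range of library medians over the members was 0.10 on the log2 scale with totals and 0.28 with TMM. The CV of named members moved by more than 1.5 times in 11 of 63 recalculations, all with TMM or RLE scaling. Of these, 9 were in the 5 members of lowest CV and 2 in Soltu.DM.03G029950 (13.7% and 14.4%, against 7.95%).

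Counts over all models moved far more, and the cause was not tested. For REO at day 40, storage without oil and storage with oil they were 516, 1611 and 1940 with DESeq2 and 40, 0 and 1208 in fits of only the 6 libraries compared. Scaling by the members gave 124 in storage without oil. The replicate block gave 44, 8 and 300. Replicate numbers showed no clear pairing: same-numbered libraries of different groups correlated at -0.56 to 0.33, and differently numbered ones at -0.41 to 0.61. Of the libraries, 4 of 9 matched their own number best, and these values cannot exclude a pairing. Leaving out 1 library gave 23 to 175, 0 to 985 and 93 to 1430. The highest of each came without control day 40 replicate 2, the lowest without REO replicate 2 and, in storage without oil, also without control day 0 replicate 3.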

Other observations

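Models as steady as the members were also found outside the level window. Of 7060 models at 10 to 50 CPM, 383 (5.42%) had a CV at or below the members' limit, as had 19 of 483 models (3.93%) above 300 CPM. Among 52 models added by the submitters at 50 to 300 CPM, 2 reached it. The lowest CV at 10 to 50 CPM was 2.42%, in Soltu.DM.09G024500 on chromosome 9, which ran from 30.1 to 32.3 CPM and lay below its counting CV of 3.12%. Above the window it was 3.87%, in Soltu.DM.09G023370 on the same chromosome, from 322.2 to 362.3 CPM. Under TMM scaling the CVs of these models, named after their values were seen, were 7.50% and 8.97%.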
